A study of Mus musculus with 8 samples.

Results

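The genes described here are those of the mouse whose symbols fit a naming rule for histone genes, given below. These genes were read in ileal crypt cells of C57BL/6 mice given CPT-11 or vehicle. CPT-11 (irinotecan) is a prodrug of a topoisomerase I inhibitor, and its mice were treated at 20 mg/kg for 7 days. There were 4 libraries of CPT-11-treated mice and 4 of vehicle-treated mice, all from crypts shaken loose from the ileum with EDTA and dissociated with trypsin, with no sort of cells. Whether every library stands for its own mouse is not in the labels, and p-values therefore reflect how far the libraries of a group scatter, which may in part be technical. They give no sex or age of the mice, and a dose and duration for the drug alone.

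Members were taken by symbol: an old-style name beginning Hist1h to Hist4h, or a new-style name beginning H1f, H2ac, H2bc, H3c or H4c followed by a number. Of 56030 rows in the table, 72 fitted this rule, namely 11 H1 genes, 20 H2A, 17 H2B, 12 H3 and 12 H4. By their coordinates in GENCODE M21 (GRCm38), 56 lie in the large histone cluster on chromosome 13 (Hist1) and 10 in the cluster on chromosome 3 (Hist2). The other 6 lie outside both, so that the name "clustered" does not hold for them. They are H1f0, H1f7, H1f8, H1f10 and the pseudogenes H1f11-ps and Hist1h2al.

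Histones package DNA: a pair of each of H2A, H2B, H3 and H4 forms the core of a nucleosome, and a linker histone, H1, sits where DNA enters and leaves it. The clustered genes are read mainly in S phase, when new DNA needs new nucleosomes. Their messages as a rule carry no poly(A) tail and end shortly after a conserved stem-loop, which the stem-loop binding protein Slbp holds. Replication-independent histones such as H1f0, H3f3a and H3f3b come from ordinary polyadenylated messages, and H1f0 is known for its rise in cells that leave the cycle and differentiate. In the ileum the crypt holds the dividing cells and the villus the differentiated ones.

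The stem-loop was searched for in the reference transcripts, because messages that end there carry no poly(A) tail and escape methods that select for one. The search allowed the 16-letter pattern GGNNNTNNNNANNNCC with paired stem positions in the first 100 bases after the stop codon, in GENCODE M21 transcripts. It matched 43 of the 68 members with a coding transcript. Among the 30 members whose annotated 3′ UTR reached at least 100 bases, 23 matched (76.7%), against 37 of 19907 other protein-coding genes with a UTR of that length (0.186%). The commonest of 8 forms, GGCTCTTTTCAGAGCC, stood in 24 members of classes H1, H2A, H2B and H3. The form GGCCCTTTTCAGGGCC stood in 6 members, all of class H4. The loop began 21 to 58 bases after the stop codon, with a median of 31. The capitals below mark the stem-loop in members that are described further on, each shown 5′ to 3′ on the strand of the message.
H1f2: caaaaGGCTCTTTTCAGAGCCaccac
H2ac18: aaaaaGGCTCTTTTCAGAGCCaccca
H2ac19: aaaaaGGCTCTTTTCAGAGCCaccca
H3c14: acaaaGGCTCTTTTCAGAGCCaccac
H3c15: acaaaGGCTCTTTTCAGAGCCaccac
H4c9: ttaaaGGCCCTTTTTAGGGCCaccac
H4c11: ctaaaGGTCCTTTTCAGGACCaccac
Hist1h4m: ctaaaGGCCCTTTTCAGGGCCatc
H2ac18 and H2ac19 were alike over all the letters shown, and so were H3c14 and H3c15. H4c11 held a form, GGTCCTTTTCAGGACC, that H4c2 also held and no other member did. The annotated transcript of Hist1h4m stopped 3 bases after its loop, as a processed histone message does, whereas that of H1f2 ran on for 840 bases and that of H4c11 for 385. The pattern was not found in the window for H1f0, H2bc21 or H2bc4. The poly(A) signal AATAAA stood in the last 50 bases of the H1f0 and H2bc21 transcripts and not in that of H2bc4, which is annotated with 2 exons. Among members with a UTR of at least 100 bases AATAAA stood there in 11 of 30 (36.7%), against 68.3% of the other genes with such a UTR. Each member was scored on a single transcript, chosen for a stem-loop match and then for the longest UTR. The other genes counted if any of their transcripts with such a UTR matched, here and for the stem-loop. The shares of members and of other genes are therefore unlike measures.

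Most of the histone genes were read at very low levels. Levels are given in CPM, the estimated count (unrounded for the members) as a share of the library's TMM-scaled total. They are divided by the length column of the table, in kilobases, wherever genes are compared. Of the 72 members 66 had a count in some library, and 6 had none in any (H1f7, H1f8, H2bc1, H2ac1, H2ac21 and Hist1h2al). A count of 0 allows a level of up to 0.125 to 0.185 CPM, which is 3 counts in the libraries of largest and smallest TMM-scaled size. This limit covers counting error only. Over all 8 libraries 51 members averaged below 1 CPM per kb and 6 at or above 10 CPM per kb. In order of that level the 6 were Hist1h4m (204 CPM per kb), H2bc4 (147), H1f0 (107), H2ac19 (30.1), H1f2 (27.4) and H2ac18 (16.8). The seventh was H4c9 at 9.89 CPM per kb. By CPM without the division, H1f0 held 37.4%, H2bc4 28.9%, Hist1h4m 14.0% and H1f2 7.26% of all that the members summed to, together 87.6%.

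The length column bears on which members could be tested. The median length was 536.5 bases over the 72 members, against 2708 bases over all genes tested. The expression filter kept 28 of the 72. It kept 10 of the 39 members under 600 bases, 8 of the 17 from 600 to below 1200 bases and 10 of the 16 of 1200 bases or more. The 28 had a median length of 750.5 bases and the 44 left out one of 478 bases. The annotated end went with it too: none of the 13 members whose annotation stops at the stop codon passed, against 14 of the 20 whose annotation runs 100 or more bases past the stem-loop. The 44 members not tested had a median of 2.91 counts per library, and the highest of them, H2bc11, had 8.85. The test therefore covers 28 of 72 members, and the longer ones more than the short ones.

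One library, CPT-11 replicate 2, stood apart from the rest, and it touches several results that follow. It correlated with the other CPT-11 libraries at Spearman rho of 0.931 to 0.962 over genes, and its TMM factor was 0.731, against 0.977 to 1.1 in the rest. On the log2(CPM + 0.5) scale its difference from the vehicle mean had a median of 0.87 over all 1375 tested genes under 1000 bases and of -0.38 over the 6103 of 3000 bases or more. In CPT-11 replicate 4 these medians were 0.34 and -0.20. The median difference of the tested histone genes was 0.44 in CPT-11 replicate 2, against -0.24, -0.20 and -0.06 in CPT-11 replicates 1, 3 and 4. In replicate 2 it was 0.50 for the 16 of them under 1000 bases and 0.41 for the 12 of 1000 bases or more. All tested genes from 1000 to below 3000 bases had a median of 0.18 there. In CPT-11 replicate 4 it was 0.04 for the 16 short members, against 0.34 for all short genes, and -0.22 for the 12 longer ones. CPT-11 replicate 2 was the highest of the 8 libraries for 16 of the 28 tested members.

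**Figure D1:**
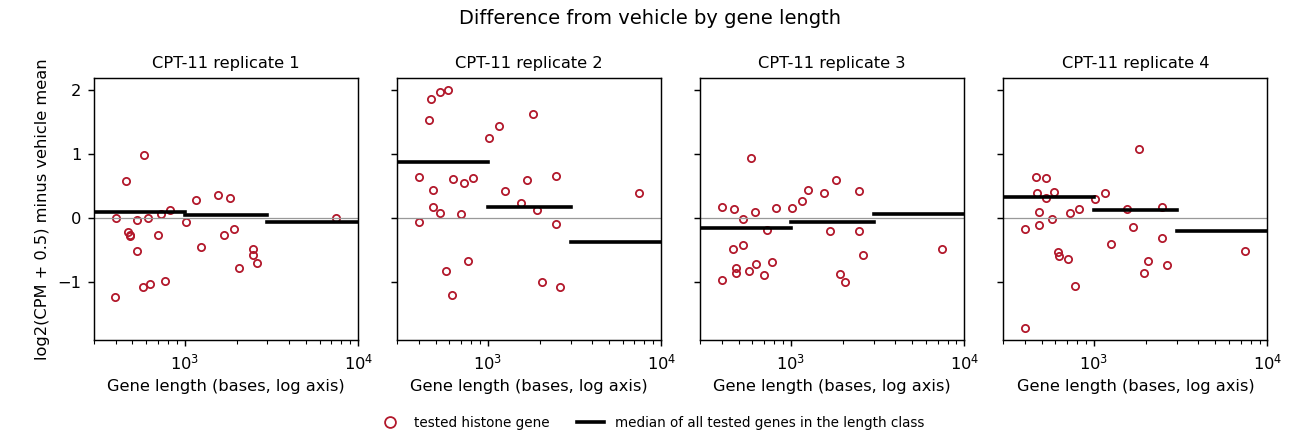
Difference of each CPT-11 library from the vehicle mean, in log2(CPM + 0.5), against gene length on a log axis, for the 28 tested histone genes (red circles) and as the median of all tested genes under 1000, from 1000 to below 3000 and of 3000 bases or more (black bars). In CPT-11 replicate 2 the bars step down from 0.87 to -0.38, and many histone genes lie above 0 there.

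Of the 28 tested members, 3 were lower in CPT-11 libraries and 0 were higher (adjusted p below 0.05 over 14011 genes, by edgeR's quasi-likelihood F test with the Benjamini-Hochberg method). That is 10.7% of them, where 5.50% of all genes tested passed, 2.98% upward and 2.52% downward. At an unadjusted p under 0.05, 3 members were higher and 4 lower, where 13.4% and 11.2% of all genes were (24.6% in either direction), so that the 7 of 28 members were at about the share of all genes. DESeq2 called 2 members higher and 3 lower, where it called 7.47% and 6.00% of all genes, and limma-voom called 0 higher and 2 lower, where it called 2.93% and 2.70% (5.62% in all, and 13.5% by DESeq2). The groups did not overlap for 3 members lower in CPT-11 and 1 higher, where 10.1% and 8.41% of all genes did not overlap in these directions. Log2 fold changes ran from -1.34 to 1.55, with 13 above and 15 below 0. Their median was -0.15, against 0.01 over all genes tested. The 3 called were H1f0, H2bc21 and H4c11, and only H1f0 was called in every setting tried. With each library's trend on gene length removed, the same 3 were called and the median log2 fold change of the tested members was -0.29.

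**Figure D2:**
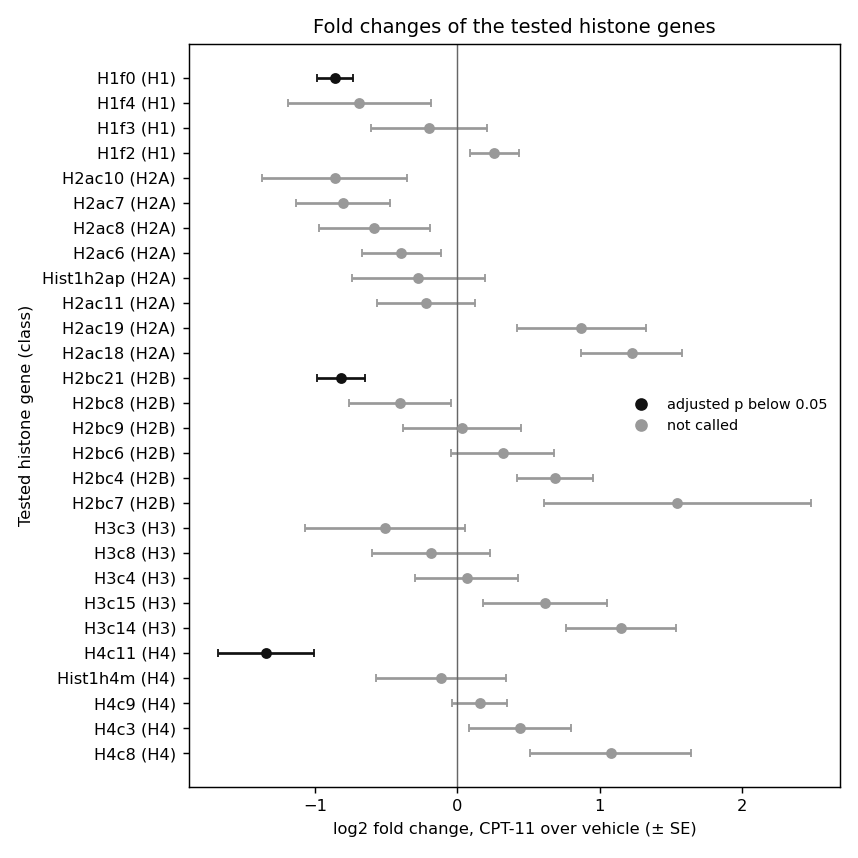
Log2 fold change (CPT-11 over vehicle, x axis) with its standard error for each of the 28 tested histone genes, ordered by class down the page, with called genes in black. H1f0 (-0.86), H2bc21 (-0.82) and H4c11 (-1.34) are the 3 called, and the uncalled genes lie on both sides of 0.

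H1f0, the replication-independent linker histone H1.0, fell. The gene is a single exon at chr15:79028450-79030504 on the plus strand, away from both clusters. It stood at 164, 142, 141 and 178.5 CPM in CPT-11 replicates 1 to 4, against 262, 282, 296 and 294 CPM in vehicle replicates 1 to 4. Every CPT-11 library was below every vehicle library, and libraries of 1 group differed at most 1.26-fold with CPT-11 and 1.13-fold with vehicle. The means were 156 ± 18.2 CPM with CPT-11 and 284 ± 15.6 CPM with vehicle (SD, n = 4 each), or 1.81-fold lower with CPT-11. The log2 fold change was -0.86 ± 0.13 (SE), with an adjusted p of 0.00673 by edgeR. Over 18 alternative settings it ran from -0.93 to -0.80 and its adjusted p never passed 0.0344. In bulk libraries fewer cells that carry a message and less of it per cell cannot be told apart, here and in all that follows. Of its 50-base stretches 5.7% also occur in another transcript, the antisense gene Gm49544, and no source used here says whether the counting used strand.

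The other linker histones were lower in level. H1f2, a replication-dependent H1 of the chromosome 13 cluster (chr13:23738808-23740367), stood at 49.2, 44.7, 50.1 and 42.0 CPM in CPT-11 libraries, against 27.7, 49.9, 36.2 and 41.6 CPM in vehicle libraries. The groups overlapped, with vehicle replicate 1 the lowest. Its log2 fold change was 0.26 ± 0.17 (SE; adjusted p = 0.369, edgeR). H1f4, of the same kind, averaged 0.672 CPM with CPT-11 and 1.08 CPM with vehicle (log2 fold change -0.69, adjusted p = 0.41, edgeR). H1f3 averaged 0.690 CPM with CPT-11 and 0.781 CPM with vehicle. H1f10 (H1x), replication-independent as H1f0 is, had 2.4 to 15 counts per CPT-11 library and 7 to 10 per vehicle library and was not tested.

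**Figure D3:**
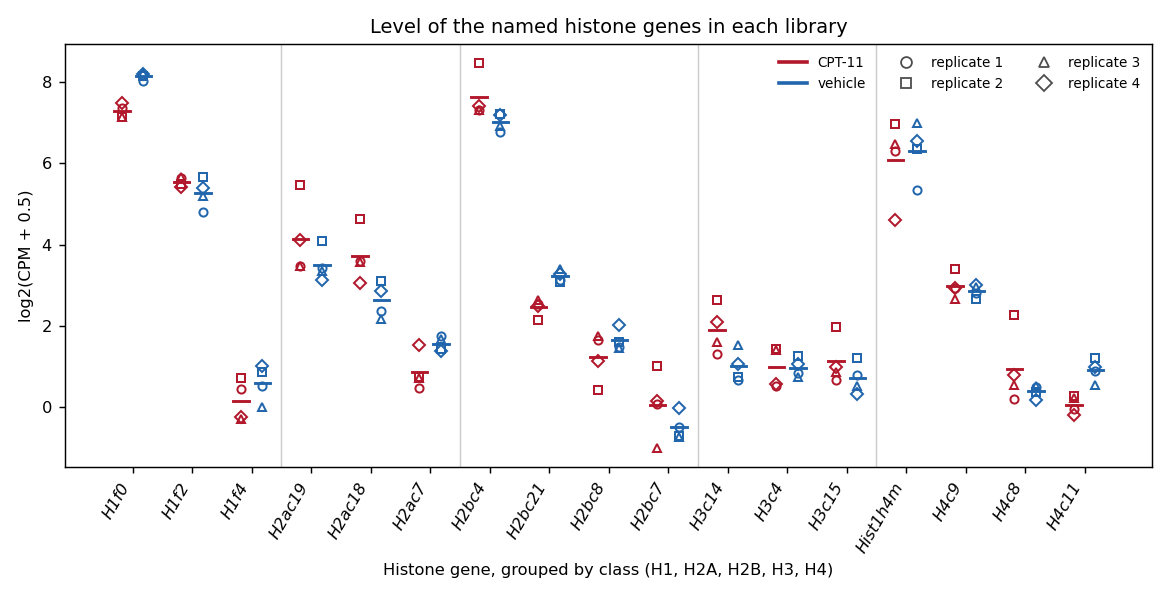
Level of each named histone gene per library on a log2(CPM + 0.5) axis, with CPT-11 in red left of vehicle in blue, a marker shape per replicate and a bar at the mean of each group. For H1f0, H2bc21 and H4c11 every red point is below every blue point, and for H2bc4 the red square, CPT-11 replicate 2 (352 CPM), stands above the other 3.

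Among the H2B genes, which form dimers with H2A, H2bc21 was called lower and H2bc4 had the highest level. H2bc21 (Hist2h2be) lies at chr3:96221119-96223738 on the plus strand, and 0% of its 50-base stretches occur in another transcript. Its levels were 5.31, 3.95, 5.78 and 5.14 CPM in CPT-11 libraries, against 8.28, 8.05, 10.1 and 9.30 CPM in vehicle libraries. The groups did not overlap. The log2 fold change was -0.82 ± 0.17 (SE), with an adjusted p of 0.0242 (edgeR). The call was lost without CPT-11 replicate 1 or 4 or vehicle replicate 1, 3 or 4, each left out singly, with adjusted p up to 0.0928, while the log2 fold change stayed between -0.90 and -0.68 over all 18 settings.

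H2bc4 (Hist1h2bc) spans chr13:23684199-23692908 on the plus strand. It stood at 159, 352, 157 and 171 CPM in CPT-11 libraries, against 109, 149, 120 and 145 CPM in vehicle libraries. CPT-11 replicate 2 was far above the rest, and the lowest CPT-11 library was just above the highest vehicle library. The gene did not pass (log2 fold change 0.68 ± 0.27 SE, adjusted p = 0.155, edgeR). Without CPT-11 replicate 2 the log2 fold change was 0.33 and the adjusted p 0.139. H2bc4, H2bc6 and H2bc8 encode the same 126 residues, and summed into 1 row they gave 0.66 (adjusted p = 0.158). H2bc8 averaged 2.01 CPM with CPT-11 and 2.69 CPM with vehicle, H2bc6 1.56 CPM with CPT-11 and 1.23 CPM with vehicle, and H2bc9 0.692 CPM with CPT-11 and 0.663 CPM with vehicle, none of them called. H2bc7 had the highest fitted log2 fold change of all members, 1.55 ± 0.94 (SE; adjusted p = 0.329), but on 0 to 24.6 counts per CPT-11 library and 2.35 to 11.5 per vehicle library.

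H2bc4 and H2bc21 each begin close to the start of an H2A gene on the other strand. Of 15 such head-to-head pairs among the members 14 joined an H2A and an H2B gene, with 175 to 305 bases between the starts and a median of 246. The other pair, H2bc9 and H3c7, stood 659 bases apart. H2bc4 is 250 bases from H2ac6, and H2bc21 is 238 from H2ac20. Per length, the partners were far apart in level over all libraries: 147 CPM per kb for H2bc4 beside 0.726 for H2ac6, and 2.67 CPM per kb for H2bc21 beside 0.290 for H2ac20. The 150 bases before the H2ac6 start (chr13:23683960-23684109, minus strand) and the H2ac20 start (chr3:96220881-96221030, minus strand) lie in those shared gaps. They are shown with the H1f0 and H4c11 promoters (chr15:79028062-79028211 and chr13:21734884-21735033, plus strand), since those 2 genes were called lower. All are from RefSeq (GRCm38.p6), with the motifs CCAAT and AAACACAAA and the TATAAA box in capitals on either strand, so that the first also appears as ATTGG.
H2ac6: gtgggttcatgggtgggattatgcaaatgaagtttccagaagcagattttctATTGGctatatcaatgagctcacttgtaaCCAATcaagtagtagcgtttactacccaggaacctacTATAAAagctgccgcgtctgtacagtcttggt
H2ac20: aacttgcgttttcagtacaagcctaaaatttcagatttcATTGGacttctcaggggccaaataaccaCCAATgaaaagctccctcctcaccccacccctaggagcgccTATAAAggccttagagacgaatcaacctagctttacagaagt
H1f0: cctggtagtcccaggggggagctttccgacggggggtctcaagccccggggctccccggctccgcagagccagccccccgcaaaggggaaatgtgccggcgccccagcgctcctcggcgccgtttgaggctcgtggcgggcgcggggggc
H4c11: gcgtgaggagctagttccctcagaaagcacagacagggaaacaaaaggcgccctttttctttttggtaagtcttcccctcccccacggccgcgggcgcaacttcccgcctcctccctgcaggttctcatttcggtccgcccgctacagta
The stretch between H2ac6 and H2bc4 held CCAAT on both strands and TATAAA near the H2ac6 start, and that between H2ac20 and H2bc21 likewise. The H1f0 and H4c11 stretches held none of the 3. Both end before the RefSeq start, which lies upstream of the GENCODE start (79028450 for H1f0 and 21735064 for H4c11). The bases between the 2 starts were not searched, so a motif there would be missed. Over the 250 bases before the start, CCAAT stood in 50 of the 63 members matched in RefSeq (79.4%), against 37.5% of 27025 genes. TATAAA stood in 28 (44.4%), against 14.3%, and AAACACAAA in 3 (4.76%), against 0.766%. The 27025 genes include the members and leave out the genes of a chromosome that holds none of them. A match of letters is a description and no evidence of a bound factor.

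None of the 8 tested H2A genes passed in edgeR, while at an unadjusted p under 0.05 there was 1 higher and 1 lower, 2 of 8, beside 24.6% of all genes at that threshold. H2ac18 (chr3:96245497-96246082, plus strand) stood at 11.7, 24.3, 11.4 and 7.78 CPM in CPT-11 libraries, against 4.72, 8.11, 4.00 and 6.77 CPM in vehicle libraries. CPT-11 replicate 4 was below the highest vehicle library. The log2 fold change was 1.22 ± 0.36 (SE), with an adjusted p of 0.0757 by edgeR, 0.0481 by edgeR with the replicate number as a block and 0.0122 by DESeq2. Without CPT-11 replicates 2 and 4 the edgeR value was 0.98 with an adjusted p of 0.0351. All of its 50-base stretches occur in other transcripts, including its twin H2ac19 and overlapping predicted genes, so its reads cannot be placed with certainty.

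H2ac19, which encodes the same protein on the minus strand of the same cluster, had 10.7, 44.1, 10.7 and 16.9 CPM in CPT-11 libraries, against 10.2, 16.6, 9.76 and 8.29 CPM in vehicle libraries. Replicate 2 was the highest library in both groups. Its log2 fold change was 0.87 (adjusted p = 0.258, edgeR), and it turned to -0.06 without CPT-11 replicates 2 and 4. H2ac18 and H2ac19 summed gave 1.004 ± 0.383 (SE; adjusted p = 0.147). On chromosome 13, H2ac7 averaged 1.41 ± 0.675 CPM with CPT-11 and 2.48 ± 0.375 CPM with vehicle (SD, n = 4 each; log2 fold change -0.80, adjusted p = 0.174, edgeR), with an adjusted p of 0.0336 without CPT-11 replicates 2 and 4. H2ac6, H2ac8, H2ac10, H2ac11 and Hist1h2ap had log2 fold changes of -0.86 (H2ac10) to -0.22 (H2ac11), none called. The 9 members of that cluster that encode 1 and the same H2A protein, H2ac6, H2ac7, H2ac8, H2ac11 and Hist1h2ap among them, gave -0.45 when summed (adjusted p = 0.235).

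The H3 genes gave no call in edgeR either, with 1 of 5 at an unadjusted p under 0.05, beside 24.6% of all genes. H3c14, beside H2ac18 on chromosome 3, stood at 1.98, 5.76, 2.54 and 3.77 CPM in CPT-11 libraries, against 1.1, 1.19, 2.4 and 1.59 CPM in vehicle libraries. The groups overlapped through CPT-11 replicate 1 and vehicle replicate 3. The log2 fold change was 1.15 ± 0.39 (SE; adjusted p = 0.111 by edgeR and 0.0416 by DESeq2), and 0.54 without CPT-11 replicates 2 and 4. All of its 50-base stretches occur in an overlapping predicted transcript, Gm20634. Its neighbour H3c15 averaged 1.85 CPM with CPT-11 and 1.19 CPM with vehicle. H3c3, H3c4 and H3c8 on chromosome 13 had log2 fold changes of -0.51, 0.07 and -0.18.

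All 12 H4 genes encode the same 103 residues, and their values are uncertain singly where they share sequence. H4c11 (Hist1h4j, chr13:21735064-21735837) was called lower at 0.476, 0.707, 0.684 and 0.375 CPM in CPT-11 libraries, against 1.35, 1.81, 0.976 and 1.49 CPM in vehicle libraries. The groups did not overlap, on 7.59 to 16.4 counts per CPT-11 library and 23.4 to 38.1 per vehicle library. The log2 fold change was -1.34 ± 0.34 (SE; adjusted p = 0.0481, edgeR). The call was lost in 11 of 17 alternatives, among them every vehicle library and CPT-11 replicates 1 and 4 left out singly (adjusted p 0.0755 to 0.124). Counted among those 11 is the sum of the 12 H4 genes, which is no value of H4c11 alone. It gave -0.08 ± 0.40 (SE; adjusted p = 0.911, edgeR).

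That sum was mostly Hist1h4m (chr13:21811746-21812147, plus strand), the member with the highest level per length. It stood at 78.8, 124, 88.7 and 23.7 CPM in CPT-11 libraries, against 40.4, 81.2, 127 and 92.9 CPM in vehicle libraries. Libraries of 1 group differed 5.23-fold with CPT-11 and 3.14-fold with vehicle, and the groups overlapped throughout. The log2 fold change was -0.11 ± 0.45 (SE; adjusted p = 0.893, edgeR). Of its 50-base stretches 89.8% occur in other transcripts, all of these in Hist1h4n, which itself had 2.22 to 8.11 counts per CPT-11 library and 3.04 to 9.06 per vehicle library. H4c9 averaged 7.58 ± 1.78 CPM with CPT-11 and 6.80 ± 0.756 CPM with vehicle (SD, n = 4 each), and H4c3 0.827 CPM with CPT-11 and 0.592 CPM with vehicle, neither called. H4c8 had 4.32 CPM in CPT-11 replicate 2, against 0.646 to 1.23 CPM in the other CPT-11 libraries and 0.633 to 0.944 CPM in vehicle libraries (log2 fold change 1.08, adjusted p = 0.265, edgeR).

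Summed by class, H1 was lower and H2B higher in every CPT-11 library than in every vehicle library. H1 summed to 216, 190, 193 and 222 CPM with CPT-11, against 292, 335, 335 and 339 CPM with vehicle, a log2 ratio of the means of -0.67. H2B summed to 170, 366, 169 and 183 CPM with CPT-11, against 125, 162, 136 and 163 CPM with vehicle, a log2 ratio of 0.60, which was 0.25 without CPT-11 replicate 2. H1f0 made up most of the H1 sums and H2bc4 most of the H2B sums.

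The other classes overlapped. H2A summed to 27.9 to 79.7 CPM with CPT-11 and 25.3 to 38.0 CPM with vehicle. H3 summed to 5.80 to 17.5 CPM with CPT-11 and 7.27 to 8.67 CPM with vehicle, and H4 to 34.5 to 143 CPM with CPT-11 and 51.4 to 138 CPM with vehicle. The log2 ratios of H2A, H3 and H4 were 0.565, 0.35 and -0.08. Without CPT-11 replicate 2 they were 0.077, -0.051 and -0.39, and without CPT-11 replicates 2 and 4 those of H2A and H3 were below 0 (-0.025 and -0.21). That of H4 was 0.19 once CPT-11 replicate 4 was left out and 0.14 once vehicle replicate 3 was. All members summed to 510, 796, 496 and 483 CPM with CPT-11, against 501, 636, 643 and 641 CPM with vehicle, a log2 ratio of -0.08, which was -0.29 without CPT-11 replicate 2. Without H1f0, H2bc4, Hist1h4m and H1f2, the other 68 summed to 58.5, 133, 58.8 and 67.6 CPM with CPT-11, against 61.3, 74.5, 64.0 and 66.7 CPM with vehicle. CPT-11 replicate 2 was the high library there too, and the others lay within a narrow band.

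**Figure D4:**
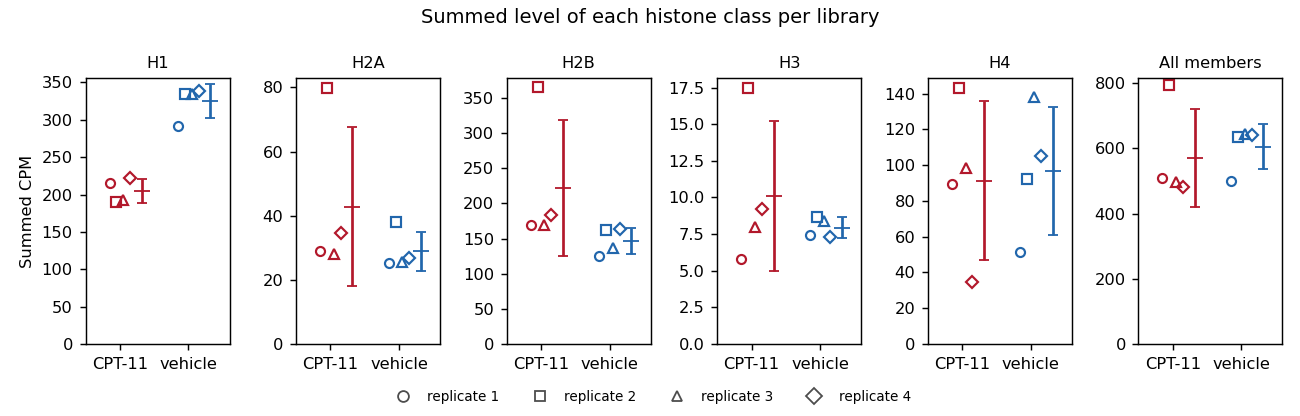
Summed CPM of the members of each class and of all members in each library, with CPT-11 in red left of vehicle in blue, a marker shape per replicate, and the mean with its SD as a bar beside the points; each y axis starts at 0 and has its own scale. H1 and H2B do not overlap between the groups, and the square of CPT-11 replicate 2 is the highest in all panels but H1.

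Other histone genes and the genes that serve them are given beside the shares over all genes tested. Of all genes 5.50% passed in edgeR, 13.5% in DESeq2 and 5.62% in limma-voom, and 24.6% had an unadjusted p under 0.05 in edgeR. Of 9 tested histone variants (of 13 listed), 0 passed in edgeR, 1 had an unadjusted p under 0.05, and DESeq2 called 1 and limma-voom 0. H2ax, whose phosphorylated form marks DNA breaks, was at 38.4 to 75.6 CPM with CPT-11 and 75.7 to 98.1 CPM with vehicle (log2 fold change -0.70 ± 0.21 SE, adjusted p = 0.083, edgeR). Its adjusted p was 0.00525 without CPT-11 replicate 2 and 0.00351 with the length trend removed. H2az2, one of the H2A.Z genes, gave -0.43 on the log2 scale with an adjusted p of 0.22 (edgeR), and it was called lower without CPT-11 replicate 2 (0.0268), without CPT-11 replicates 2 and 4 (0.00188) and with the length trend removed (0.0293). Over all settings 0 to 2 variants were called lower and 0 higher. H2az1 (0.14), H2aj (0.60) and H3f3b (-0.05) did not pass either, these being log2 fold changes.

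Of 21 tested genes of histone message transcription and processing, 0 passed in edgeR, DESeq2 or limma-voom. At an unadjusted p under 0.05 in edgeR there were 3 of the 21, beside 24.6% of all genes. Slbp was at 47.2 ± 8.38 CPM with CPT-11 and 47.7 ± 3.38 CPM with vehicle (SD, n = 4 each; log2 fold change -0.02 ± 0.14 SE). Npat, the coactivator that switches on the clusters, did not pass (log2 fold change -0.25, adjusted p = 0.523, edgeR). The log2 fold changes of Sympk, the scaffold of the cleavage complex, Zfp473, a zinc finger protein of it, and Ncbp2, of the cap-binding complex, were -0.42, -0.85 and 0.31, with adjusted p of 0.126, 0.165 and 0.198.

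Of 24 histone chaperones 2 fell and 0 rose, where 2.52% of all genes fell and 2.98% rose in edgeR. Over all settings 0 to 4 chaperones fell. Hjurp, which loads the centromeric H3 variant, averaged 72.3 ± 21.7 CPM with CPT-11 and 155 ± 17.0 CPM with vehicle (SD, n = 4 each; log2 fold change -1.099, adjusted p = 0.0184, edgeR). Asf1b, the proliferation-linked chaperone of H3 and H4, averaged 15.4 ± 3.02 CPM with CPT-11 and 26.1 ± 3.12 CPM with vehicle (-0.76, adjusted p = 0.0307). The Hjurp call was lost without CPT-11 replicate 4 or vehicle replicate 1, 2 or 3, each left out singly (adjusted p up to 0.0714), and that of Asf1b without CPT-11 replicate 1 or any 1 of the vehicle libraries (up to 0.108). Ubn1, of the complex that deposits H3.3, was at 39.3 to 60.7 CPM with CPT-11 and 62.5 to 65.4 CPM with vehicle (adjusted p = 0.118).

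Genes of the cell cycle give the setting in which the S phase histone genes were read. Over all genes tested 2.52% fell and 2.98% rose in edgeR, and DESeq2 called 6.00% lower. Of 40 S phase genes 2 fell and 0 rose, with a median log2 fold change of -0.23: Tk1, thymidine kinase (24.3 ± 4.94 CPM with CPT-11 and 54.5 ± 7.80 with vehicle, SD, n = 4 each, adjusted p = 0.00674, edgeR), and Pole, a replicative DNA polymerase subunit (12.2 ± 2.41 CPM with CPT-11 and 21.1 ± 3.99 with vehicle, adjusted p = 0.0412). The Pole call was lost without CPT-11 replicate 1 or 4, any 1 of the vehicle libraries, or CPT-11 replicates 2 and 4 together (adjusted p up to 0.137). DESeq2 called 7 of the 40 lower, and between 1 and 7 fell over all settings. Pcna, the sliding clamp of replication, had a log2 fold change of -0.07 ± 0.14 (SE). Of 30 genes of G2 and M phase 16 fell and 0 rose, with a median of -0.75, and 7 to 19 fell over all settings. Racgap1, Aurkb and Plk1, which act in mitosis and cytokinesis, had log2 fold changes of -1.07, -1.095 and -0.94, and the proliferation marker Mki67 -1.18 (adjusted p = 0.0296, edgeR). The Mki67 call was lost without CPT-11 replicate 1 or 4 or vehicle replicate 1, 3 or 4, each left out singly (adjusted p up to 0.0948). The tested histone genes, at a median of -0.15, are set beside these lists as a description only.

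The tissue label held for its markers in part. The calls below stand beside 2.98% of all genes higher and 2.52% lower in edgeR, and 7.47% and 6.00% in DESeq2. All 12 crypt and epithelial markers were read, and Lgr5 and Olfm4, which mark crypt stem cells, were the 2 that fell (log2 fold changes -2.06 and -1.79, adjusted p = 7.92e-05 and 0.000782, edgeR). Over all settings 2 to 5 of the 12 fell, with 5 when the length trend was removed, and 1 rose without CPT-11 replicate 3. The log2 fold changes of the 12 went both ways, 6 above and 6 below 0, with a median of 0.015. The 13 villus enterocyte genes summed to 21770 to 65370 CPM with CPT-11 and 12790 to 20760 CPM with vehicle, and 1 of them, Fabp2, was called higher (0 to 4 over all settings, with 0 when CPT-11 replicate 1 or vehicle replicate 1, 2 or 3 was left out). Of 10 tested B and plasma cell markers 5 were higher (0 to 6 over all settings, 0 without vehicle replicate 1), and the 12 listed summed to 219 to 285 CPM with CPT-11 and 217 to 243 CPM with vehicle. Of 9 tested macrophage and dendritic cell markers 2 were higher and 0 lower (1 to 3 and 0 to 1 over all settings). They summed, with the untested ones listed, to 50.3 to 71.0 CPM with CPT-11 and 42.8 to 56.1 CPM with vehicle. The T cell, fibroblast and endothelial lists held no call in edgeR, DESeq2 or limma-voom. At an unadjusted p under 0.05 in edgeR they had 2 of 13, 2 of 6 and 1 of 2 tested genes, beside 24.6% of all genes. T cell markers summed to 339.5 to 537 CPM with CPT-11 and 158 to 518 CPM with vehicle, and fibroblast and smooth muscle markers to 44.8 to 139 CPM with CPT-11 and 19.9 to 62.6 CPM with vehicle. Endothelial markers summed to 2.69 to 3.89 CPM with CPT-11 and 2.47 to 2.74 CPM with vehicle. The B cell lineage marker Tnfrsf17 and the endothelial marker Emcn were at 0 in every library. The part of these cells in the values of H1f0 or of any other histone gene was not tested. Of 13 RNAs that carry no poly(A) tail, 2 (Rprl3 and Terc) were at 0 in all libraries, 0 of the 5 tested had an unadjusted p under 0.05 in edgeR or a call in DESeq2 or limma-voom, 2 were called lower without CPT-11 replicate 2, and the list summed to 9.46 to 35.3 CPM with CPT-11 and 14.4 to 34.3 CPM with vehicle. The labels name total RNA and do not say whether poly(A) tails were selected, so how fully messages without a tail were read was not tested.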

How the data were processed

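RNA sequencing of 8 libraries was deposited by the authors as 1 table of estimated counts, not normalized, with a gene length column in bases; it is not stated how that length was defined. The table's values show this: 10.3% to 11.1% of them per library were not whole (tolerance 0). Per the submitters' processing notes, Bowtie2 2.4.1 and GRCm38.p6 were used. For the counting tool, strand and library kit, none is given in the sources used here. Totals were 20790164 to 23479121 per library. The 543 rows with no gene name (0.325% to 0.662% of counts) and the authors' 2 columns of group means were left out.

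Counts were rounded and tested with edgeR 4.0.16 (R 4.3.3), with its default filter and TMM scaling. The filter asks for about 10 counts, scaled to library size, in at least 4 of the 8 libraries, and 15 counts in total. The test was the robust quasi-likelihood F test, two-sided, with Benjamini-Hochberg adjustment over 14011 genes. Each SE of a log2 fold change was derived from that test, as the size of the change over the square root of its F statistic. CPM used TMM-scaled library sizes, and the pseudocount was 0.5 CPM. Estimated counts share reads between near-identical copies, so shared 50-base stretches were counted in GENCODE M21 transcripts on both strands, and rows of identical protein were also summed. Of the 72 members 28 overlap an exon of another gene, 25 of them on the opposite strand. Scripts were tested on simulated data. Named genes are all called members, the 3 of highest mean CPM and 2 of largest change per class, H1f0, H1f2, H2bc4 and H2bc21, up to 3 of smallest p per related list, and Slbp, Npat, H2az1, H2ax, H3f3b, Mki67 and Pcna; other members, Hist1h4n, Fabp2, Lgr5 and Olfm4 were named after their values were seen. Members, lists and tests were chosen with earlier results of these data known. Alternatives were RLE and upper-quartile scaling, DESeq2 1.42.0, limma-voom (limma 3.58.1), no filter, a filter at 1 CPM in at least 4 libraries, a replicate block, a length correction, and libraries left out.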

Additional observations from a re-analysis of the deposited data

Results flagged for a closer look

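Of 88 sets of 4 libraries checked, 10 had 1 library far from the others by Dixon's criterion, which chance alone meets in about 1 group in 20. In CPT-11 replicate 2, H2bc4 stood at 352 CPM (157 to 171 in the other CPT-11 libraries) and H4c8 at 4.32 CPM (0.646 to 1.23). In the same library the H2A class summed to 79.7 CPM (27.9 to 34.7), the H2B class to 366 CPM (169 to 183) and all members to 796 CPM (483 to 510). Zfp473, of histone message processing, was low there at 0.37 CPM (1.04 to 1.13). Ncbp2 was low in CPT-11 replicate 3 at 21.2 CPM (25.1 to 25.3). In vehicle replicate 1, the H1 class summed to 292 CPM (334.5 to 339 in the other vehicle libraries) and all members to 501 CPM (636 to 643). In vehicle replicate 2, the H2A class summed to 38.0 CPM (25.3 to 26.7).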

How the results depend on the processing

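The counts of members called depended on the setting. Called higher were 1 with the replicate block, 1 without CPT-11 replicates 2 and 4 together and 2 with DESeq2, against 0; called lower were 1 to 3 with 1 library left out, against 3. The causes were not tested, and with 1 library left out the genes called over the whole table numbered 236 to 1522, against 770. The replicate numbers were not taken to pair libraries, since the labels give no batch. Same-numbered libraries deviated together at correlations of 0.234, 0.144, -0.119 and 0.091. The best-matching vehicle library had the same number for CPT-11 replicates 1 and 2 and another number for 3 and 4. These values cannot decide whether libraries were paired. The replicate block gave 686 genes called, with H1f0, H2bc21 and H2ac18 the members among them. Of the class sums, H2A turned to -0.025 and H3 to -0.21 without CPT-11 replicates 2 and 4. Among single genes, none of them called, signs turned without those 2 libraries in H2ac19 (-0.062), H2bc8 (0.039), H4c9 (-0.056), H4c8 (-0.046), Npat (0.051) and H2az1 (-0.18). With length trends removed H3c4 (-0.12), H4c9 (-0.17) and H2az1 (-0.15) turned. With identical proteins summed, the row that holds H2bc8 gave 0.66 and the row that holds H4c8 and H4c9 gave -0.084. These are values of the sums, and the single genes have none of their own in that setting. H3c4 turned also with the replicate block (-0.004) and limma-voom (-0.021). Leaving out 1 library at a time, the log2 fold change ran from -0.15 to 0.24 for H3c4, -0.41 to 0.19 for Hist1h4m, -0.13 to 0.068 for Slbp, -0.036 to 0.27 for H2az1, -0.13 to 0.013 for H3f3b and -0.19 to 0.00 for Pcna. Low counts kept 44 members out of the test: 17 of them averaged above 0 and under 3 counts per library and 6 had none. Why these counts were low was not tested.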
